A study of Homo sapiens with 36 samples.

Results

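The regions described here are 718 of the 7439 enhancer RNA regions counted in cytoplasmic polyA RNA of HCT116 cells, a human colon carcinoma line. They were chosen by their counts: fewer than 60 reads summed over the 6 polyA libraries of the control line, and at least 30 reads summed over the 3 polyA libraries of auxin-treated DIS3-AID cells. Low control counts and high treated DIS3-AID counts are therefore how the regions were picked, and they are not findings. Of the other enhancer RNA regions, 866 had 60 or more counts in the control line and 5855 were below both limits.

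Enhancer RNAs are short transcripts made by RNA polymerase II at active enhancers, usually in both directions from an open site. Most are capped, end early, are rarely spliced and are removed within minutes by the nuclear RNA exosome, a ring of subunits with attached 3′ to 5′ ribonucleases. DIS3 is the processive ribonuclease of that complex in the nucleoplasm. Adaptors such as the nuclear exosome targeting complex and the polyA exosome targeting connection, both built around the helicase MTREX, bring early-ending and polyadenylated transcripts to it. Such RNAs are mostly described in the nucleus, whereas the libraries here are of the cytoplasmic fraction.

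The study compared 4 groups of 3 libraries. The control line was HCT116 expressing TIR1, the plant auxin receptor subunit, either untreated or given 500 uM auxin for 1 h. The other line, DIS3-AID, was a clone made with CRISPR whose DIS3 carries the auxin-inducible degron, a tag that TIR1 and auxin mark for degradation, again untreated or given 500 uM auxin for 1 h. The DIS3-AID cells are 1 clone, so a difference from the control line without auxin may belong to the clone, and the libraries of a group are called technical triplicates, so that every p-value here measures only the spread between such libraries.

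Total counts ran from 25.9 to 33.1 M per polyA library and from 59.5 to 122.6 M per cytoplasmic total RNA library. The level of DIS3 RNA, which the degron does not act on, was 6.90 ± 1.26, 6.64 ± 0.558, 4.36 ± 0.306 and 4.98 ± 0.409 CPM (counts per 1000000 of the scaled library; SD, n = 3) in untreated control, treated control, untreated DIS3-AID and treated DIS3-AID polyA libraries, so it gives no check of the depletion. In cytoplasmic total RNA, 7 of 10 colon epithelial markers reached 1 CPM on average (EPCAM, CDH1, KRT8, KRT18, KRT19, CLDN4 and CLDN7), with a summed level of 2791 to 3597 CPM per library. The 5 fibroblast markers summed to between 8.92 and 14.6 CPM, with COL1A1 alone reaching 1 CPM, and the 5 blood markers summed to between 0.138 and 0.582 CPM. No marker was at 0, and their part in the results below was not tested.

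Each region is known from the tables by a class and a number, shortened here (intergenic.3058 is region 3058 of the intergenic class). Neither their positions nor their sequences were used here. The 2 classes were chosen at the same rate: 505 of 5235 intergenic regions (9.65%) and 213 of 2204 antisense regions (9.66%). The regions with 60 or more control counts made up 11.6% of the intergenic and 11.7% of the antisense class.

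Summed over the 718 regions, the level was 73.1, 73.2 and 74.8 CPM in the 3 untreated control libraries and 82.1, 81.9 and 79.7 CPM in the treated control libraries. It was 101, 106 and 108 CPM in untreated and 628, 682 and 724 CPM in treated DIS3-AID libraries. The 4 groups did not overlap. The treated DIS3-AID mean of 678 ± 48.1 CPM (SD, n = 3) was 6.45 times the untreated mean of 105 ± 3.58 CPM, a size that the choice of regions partly sets. These RNAs remained a small part of each library, and only in the treated DIS3-AID libraries did all 718 regions have a read, against 507 to 534 regions in untreated control, 527 to 546 in treated control and 589 to 596 in untreated DIS3-AID libraries.

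Intergenic regions summed to 52.8 ± 0.803, 58.1 ± 1.39, 74.4 ± 2.14 and 485 ± 34.5 CPM in the 4 groups, in the order given above, and antisense regions to 21.0 ± 0.293, 23.1 ± 0.823, 30.7 ± 1.47 and 193 ± 13.6 CPM. Per region, the log2 ratio of treated over untreated DIS3-AID libraries had a median of 2.69 in the intergenic and 2.83 in the antisense class. These ratios rest on the treated counts that chose the regions, and the classes were not tested against each other.

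**Figure D1:**
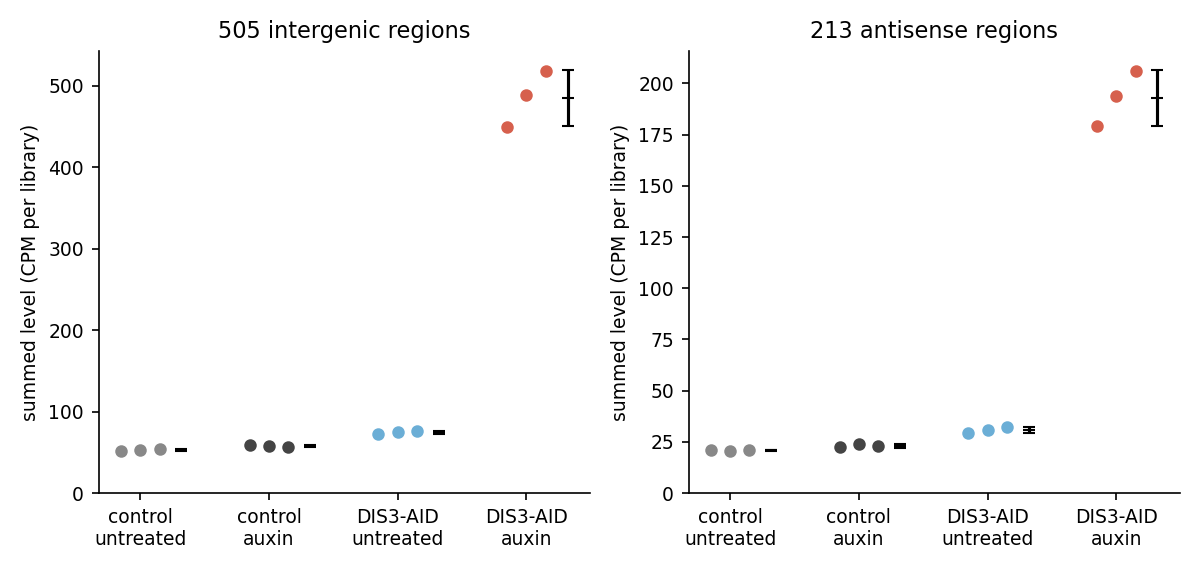
Summed level of the described regions in each polyA library (CPM), intergenic regions on the left and antisense regions on the right, with the mean and SD of each group of 3 libraries as bars. In both classes the treated DIS3-AID libraries stand far above the other 9, at a mean of 485 and 193 CPM.

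Enhancer RNA as a whole gained 1757 CPM between untreated and treated DIS3-AID libraries, and the 718 regions held 573 CPM or 32.6% of that gain. The 866 regions with 60 or more control counts held 974 CPM, or 55.5%, at a ratio of only 1.08, because they start from a mean of 11908 CPM. The 5855 regions below both limits held 210 CPM, or 11.9%, at a ratio of 2.83.

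Single regions were rare RNAs even after auxin. Their mean level in treated DIS3-AID libraries ran from 0.359 to 7.46 CPM, with quartiles of 0.466, 0.644 and 1.02 CPM. A typical region had 14 reads over the 6 control libraries, 9 over the 3 untreated DIS3-AID libraries and 53 over the 3 treated ones. Counts were spread widely: the 44 regions with 200 or more treated reads held 24.3% of the treated reads, and 195 regions had 30 to 39. Region by region, the 3 treated libraries had a chi-square per degree of freedom of 1.52, where counting alone gives about 1, and 96 regions (13.4%) were past the 95% point.

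The log2 ratio of treated over untreated DIS3-AID counts, with 1 read added to each sum, had quartiles of 1.77, 2.74 and 3.71 and ran from -0.46 to 7.15. The median over the 866 regions with 60 or more control counts was 0.29, and over all features tested it was -0.01. A ratio of 8-fold or more was seen in 325 regions (45.3%), 2-fold to 8-fold in 326, and less than 2-fold in 67 (9.33%), 4 of them below 1. In edgeR, 475 of the 563 regions that passed the low-count filter were called higher after auxin in DIS3-AID cells and 0 lower, where 13.2% of all features tested were higher and 3.88% lower. The rule used this contrast, so nothing is read from that count.

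**Figure D2:**
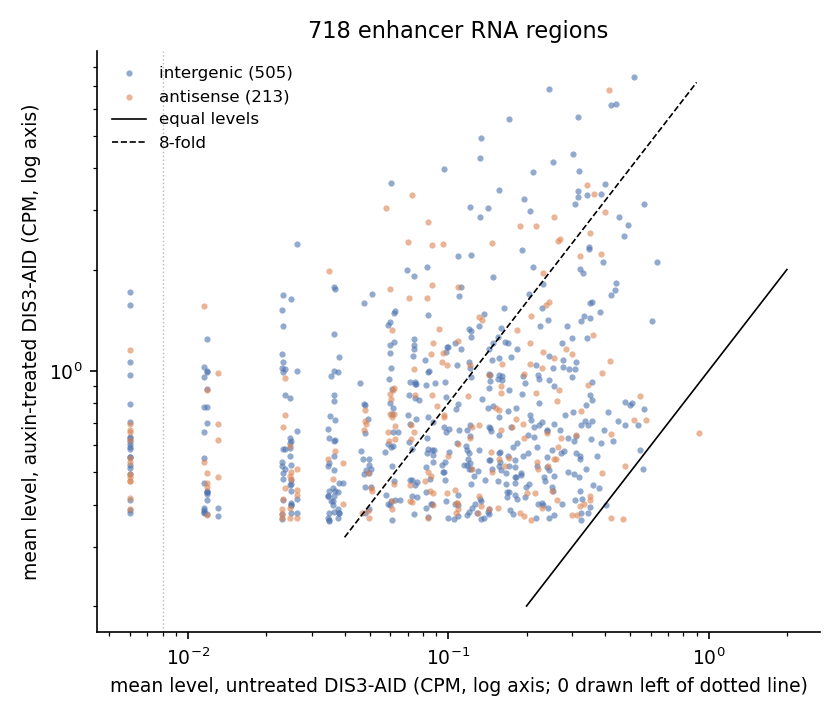
Mean level of each of the 718 regions in untreated (horizontal) and treated (vertical) DIS3-AID polyA libraries, in CPM on log axes, coloured by class, with lines at equal levels and at 8-fold. Regions with no untreated read are drawn left of the dotted line, and 4 regions had a ratio below 1.

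The choice also rewards chance highs in the treated libraries, so the regions were chosen again from libraries with 2 of the 3 replicate numbers, with both limits lowered in proportion to 40 and 20 reads, and read in the libraries left out. With replicate 1 left out, 745 regions were chosen, and in the left-out libraries 722 of them (96.9%) were higher in the treated than in the untreated DIS3-AID library. With replicate 2 left out this held for 707 of 739 (95.7%), and with replicate 3 left out for 670 of 690 (97.1%). The left-out sums were 6.08, 6.23 and 6.66 times higher in the treated library, close to the ratio in the full set. Of the regions chosen, 668, 669 and 645 were among the 718. With all 3 replicates summed, the ratio was above 0 in 47% of all features tested and in 78.5% of the 866 regions with 60 or more control counts. The labels call the libraries technical triplicates, so the left-out ones are not known to be separate cultures. A repeat in them was therefore likely, and it bears only on chance highs in single libraries. The size of the ratio still depends on the limits used to choose the regions.

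The regions with most reads after auxin give the clearest view of the pattern. Region intergenic.3058 had 6, 5 and 5 reads in untreated control, 8, 2 and 5 in treated control, 21, 12 and 10 in untreated DIS3-AID and 192, 223 and 198 in treated DIS3-AID libraries. Its level was 0.517 ± 0.199 CPM in untreated and 7.46 ± 0.879 CPM in treated DIS3-AID cells (SD, n = 3), the highest treated level of all 718. Its row stands next to FAUP4, a transcribed pseudogene annotated by GENCODE 29 at chr11:65455258-65466720 (hg38, plus strand). On its other side is XLOC_002808, an assembled locus, that is a transcript model with only a number. The polyA counts of this locus differed by 8.01% from those of the region, and whether the reads are shared was not tested.

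Region intergenic.3146 had 1, 2 and 3 reads in untreated control, 4, 2 and 4 in treated control, 6, 6 and 8 in untreated DIS3-AID and 198, 165 and 203 in treated DIS3-AID libraries, a log2 ratio of 4.76. Region intergenic.3318, which lies in the same gap of the table, after the lincRNA gene ENSG00000257989 (chr12:52092485-52104297, minus strand), had 9, 9 and 8 reads in untreated and 135, 143 and 190 in treated DIS3-AID libraries. For both, the treated DIS3-AID libraries were far from all 9 others, which were at 9 reads or fewer.

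Region antisense.1892 had 8, 10 and 7 reads in untreated control and 0, 2 and 2 in treated control libraries, then 13, 8 and 13 in untreated and 170, 186 and 205 in treated DIS3-AID libraries. Its row stands between SYTL3, a synaptotagmin-like gene at chr6:158650014-158764876 (plus strand), and the pseudogene AMZ2P2, annotated inside the span of SYTL3 at chr6:158725747-158726803 (minus strand). It was the one region of the 8 with most reads whose mean in treated control libraries was more than 2-fold below that in untreated ones.

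The remaining regions among those 8 had the same shape. Region intergenic.367 had 7, 2 and 5 reads in untreated and 151, 142 and 168 in treated DIS3-AID libraries, and its row follows BCAR3-AS1, an antisense gene at chr1:93592199-93605573 (plus strand). Region intergenic.3242 had 3, 4 and 4 reads, then 128, 140 and 137. Region intergenic.2882 had 11, 11 and 14 reads, then 163, 147 and 201, and intergenic.503 had 9, 15 and 11, then 155, 164 and 189. The polyA counts of the assembled locus XLOC_002147, which flanks intergenic.2882, differed from those of that region by 0.168%. In all 8 the lowest treated DIS3-AID library was above the highest of the other 9 libraries. It also held in 626 of the 718, and the choice by treated reads favours it. The share over all features was not counted for this comparison with 9 libraries, so nothing is read from it. Against the 3 untreated DIS3-AID libraries alone, the treated ones lay wholly above in 90.5% of the 718 and in 18.6% of all features tested.

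**Figure D3:**
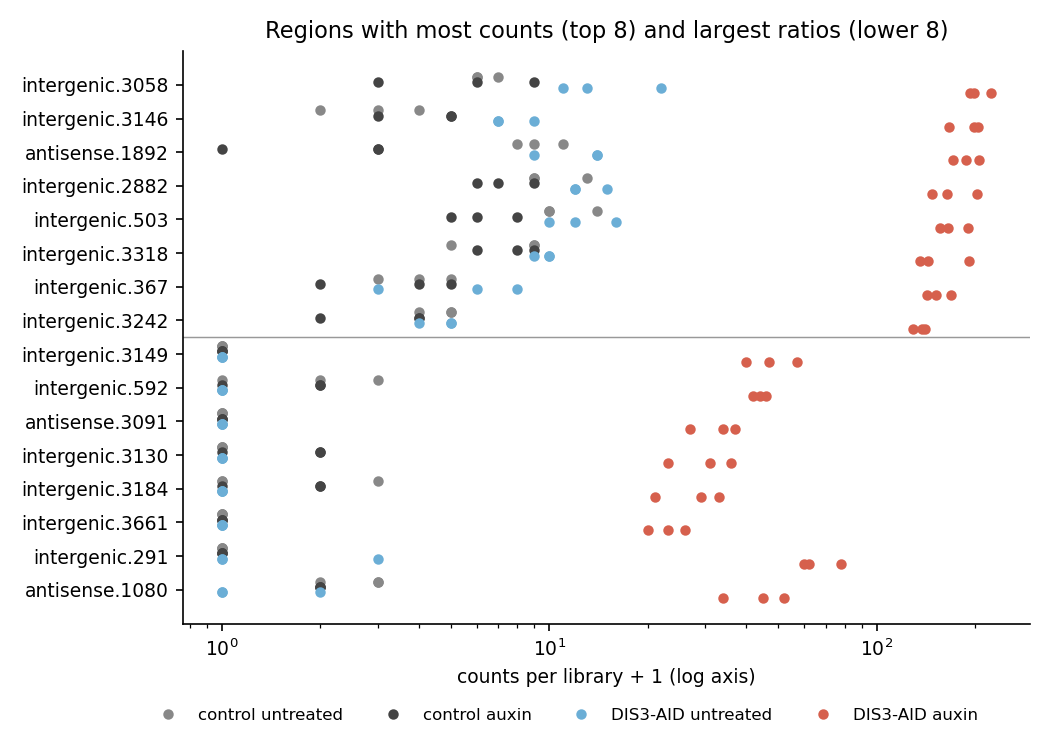
Reads per polyA library (1 added, log axis) for the 8 regions with most treated DIS3-AID reads, above the line, and the 8 with the largest ratio of treated over untreated DIS3-AID counts, below it. Each point is 1 library. In every region shown the 3 treated DIS3-AID libraries lie above the other 9, which the choice by treated reads favours. Region intergenic.3149, for example, had 56, 46 and 39 reads against 0.

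Some regions were seen only after auxin in DIS3-AID cells. No read fell in any of the 6 control libraries for 23 regions, and for 8 of these none fell in the untreated DIS3-AID libraries either. With the limit that a count of 0 allows taken as 3 reads over the group, or 0.0169 CPM over the control libraries, the treated DIS3-AID level of these 23 regions was at least 21.6-fold higher for the lowest of them, with a median bound of 39.6 and a highest of 142. These bounds cover counting error only. The rule required a minimum of treated DIS3-AID reads, so any chosen region with no control read had to show a high bound. The lowest bound follows from that limit, and the others rest on the treated counts that chose the regions. Nothing is therefore read from their size. The bounds given below for single regions rest on the same treated counts.

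Region intergenic.3149 had 0 reads in 9 libraries and 56, 46 and 39 in the treated DIS3-AID libraries. That is at least 47.2-fold higher than in untreated DIS3-AID cells, where 3 reads over the group are 0.0363 CPM. Its row stands between METTL7AP1, a processed pseudogene at chr12:52229093-52229588 (minus strand), and KRT7, a keratin gene of simple epithelia at chr12:52232520-52252186 (plus strand).

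Region antisense.3091 was likewise at 0 in 9 libraries and then at 36, 33 and 26 reads, at least 31.8-fold higher. Its row stands between SKAP1-AS1, an antisense gene at chr17:48185938-48204529 (plus strand), and RNU6-1152P, annotated inside that span. In DIS3-AID total RNA, SKAP1-AS1 itself stood at 0.922 CPM without and 19.5 CPM with auxin (log2 4.40 ± 0.10 SE). Whether the reads of the region belong to that gene was not tested. Region intergenic.3661, between RN7SKP17 and the lincRNA gene ENSG00000259058 on chromosome 14, went from 0 to 25, 19 and 22 reads, at least 22.1-fold higher.

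Region antisense.1080 had 1, 2 and 2 reads in untreated control, 1, 1 and 1 in treated control, 0, 1 and 0 in untreated DIS3-AID and 33, 44 and 51 in treated DIS3-AID libraries. Its row stands after AXL, a receptor tyrosine kinase gene at chr19:41219203-41261766 (plus strand), and before an antisense gene annotated inside that span. Region intergenic.291 was at 0 in 8 of the 9 other libraries, at 2 reads in 1 untreated DIS3-AID library, and at 59, 61 and 77 reads after auxin. The polyA counts of the assembled locus XLOC_001008, which flanks it, differed from those of the region by 7.04%. With 1 and 2 untreated reads, no exact ratio can be given for antisense.1080 and intergenic.291.

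At the other end, a few regions entered by the rule without differing after auxin. Region antisense.1741 had 3, 4 and 3 reads in untreated control, 12, 2 and 8 in treated control, 17, 27 and 31 in untreated DIS3-AID and 24, 17 and 13 in treated DIS3-AID libraries, the highest untreated and the lowest ratio of all. Its row stands between MTND4P12 and MTND4LP30, nuclear pseudogene copies of mitochondrial genes at chr5:134926660-134928036 and chr5:134928030-134928326 (minus strand), and such near-identical copies leave the source of the reads uncertain. Region antisense.1771 had 8, 11 and 19 untreated and 15, 9 and 6 treated DIS3-AID reads. Region antisense.622 had 9, 15 and 11, then 11, 11 and 8, and intergenic.2066 had 17, 14 and 15, then 8, 13 and 21. In each of these the untreated and treated libraries overlap, and the ratio was below 1.

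The values at the limits show how little divides the chosen regions from their neighbours. Region intergenic.4928, with 59 control reads, had 17, 14 and 14 untreated and 15, 13 and 20 treated DIS3-AID reads, and intergenic.3324, left out with 60 control reads, had 11, 9 and 7, then 12, 10 and 8. Region intergenic.232, with 30 treated reads, had 4, 0 and 4, then 9, 12 and 9, and antisense.2337, left out with 29, had 1, 0 and 1, then 8, 6 and 15.

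Auxin in control cells is the one comparison in polyA RNA that the rule left free, since it used only the sum over both control groups. The summed level of the regions was 73.7 ± 0.933 CPM without and 81.2 ± 1.28 CPM with auxin (SD, n = 3), 1.1 times higher, with all 3 treated libraries above all 3 untreated ones. The same ratio was 1.03 for the regions with 60 or more control counts and 1.07 for those below both limits. No test was made of these sums. By region, the median log2 ratio was 0.12, and it was above 0 in 435 of 718 (60.6%), beside 0.01 and 52.8% over all features tested. With 1 read added to each sum, a region with no control read scores 0.12 because the library sizes differ. All 23 such regions count as above 0, so no shift is read from the median or the share.

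No single region passed the test. edgeR called 0 regions higher and 0 lower of the 563 tested, where it called 0.012% of all features higher and 0.036% lower, and DESeq2 called 0. Most of the 563 passed the low-count filter through their DIS3-AID reads: with only the 2 control groups fitted, 21 regions were tested. A typical region had 14 reads over the 6 control libraries, so a lack of calls was likely in advance and little can be read from it. At an unadjusted p under 0.05 there were 30 regions (5.33%), against 5.23% of all features. All 3 treated control libraries lay above all 3 untreated ones in 49 of the 718 regions (6.82%, against 5.74% of all features tested) and below them in 16 (2.23%, against 4.26%).

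The smallest p belonged to intergenic.3680, with 3, 2 and 2 reads in untreated and 10, 7 and 13 in treated control libraries (log2 2.16 ± 0.54 SE, edgeR adjusted p = 0.201). It had 6, 10 and 11 reads in untreated and 44, 54 and 62 in treated DIS3-AID libraries, and its row stands before DLK1, an imprinted gene of a Notch-like ligand at chr14:100725705-100738224 (plus strand). The next was antisense.1892, described above, with log2 -2.42 ± 0.62 SE (edgeR adjusted p = 0.242). The other two, antisense.794 (2, 3 and 5 reads, then 7, 12 and 13) and intergenic.3758 (4, 6 and 3, then 0, 1 and 0), had edgeR adjusted p of 0.441 and 0.485.

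**Figure D4:**
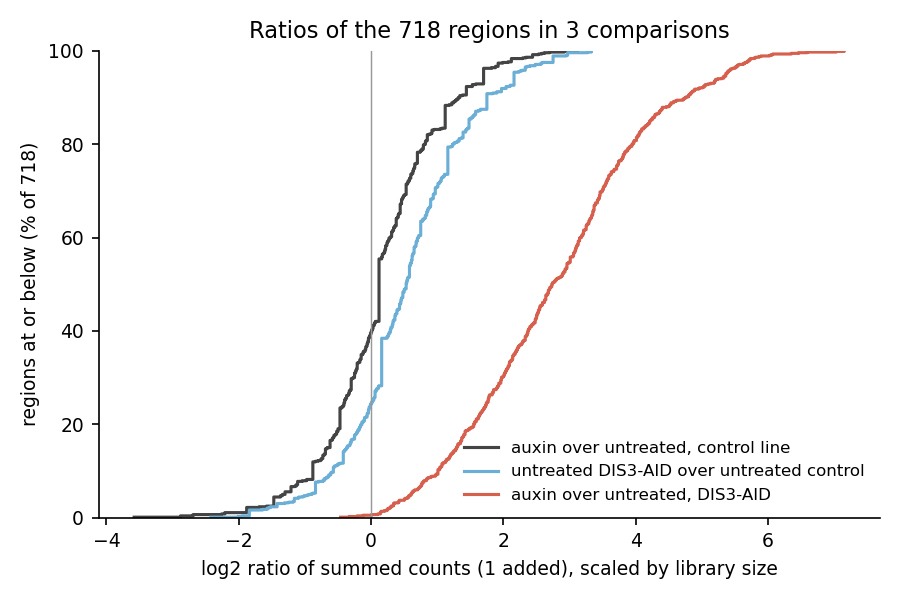
Share of the 718 regions (vertical, %) at or below each log2 ratio of summed counts (horizontal, 1 read added, scaled by library size), for auxin in control cells, untreated DIS3-AID over untreated control, and auxin in DIS3-AID cells. The medians are 0.12, 0.53 and 2.74, and the third used values that chose the regions. A region with no read in either group scores 0.12 in the first comparison and 0.16 in the second, because the library sizes differ.

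The difference between the lines in their auxin response was called higher in DIS3-AID in 130 of the 563 regions tested and lower in 0, where 4.85% of all features were higher and 0.985% lower. This too used the treated DIS3-AID counts.

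Without auxin the regions stood higher in the DIS3-AID clone than in control cells. The summed level was 105 against 73.7 CPM, or 1.43 times, and in the libraries left out of the choice above it was 1.33, 1.42 and 1.46 times. By region the median log2 ratio was 0.53, with 544 of 718 (75.8%) above 0, beside 0.01 and 52.1% over all features tested. The rule capped the control counts and asked for reads in treated libraries of the same clone. Both can push this ratio up, in the left-out libraries as well, so it is a description. A region with no read in either group scores 0.16 here because the library sizes differ, and so counts as above 0. Untreated DIS3-AID libraries lay above all 3 untreated control libraries in 113 regions (15.7%, against 14.7% of all features tested) and below them in 4 (0.557%, against 13.7%).

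edgeR called 22 regions higher and 0 lower in the untreated clone, or 3.91% of the 563 tested, where 6.22% of all features were higher and 5.65% lower. The 22, of which 13 were intergenic and 9 antisense, had log2 differences of 1.48 to 3.79. Region intergenic.3533 (chosen for naming after its values were seen) had 2, 1 and 1 reads in untreated control, 1, 1 and 0 in treated control, 16, 13 and 13 in untreated DIS3-AID and 24, 19 and 23 in treated DIS3-AID libraries. Of the 22, 18 were at least 2-fold higher again in treated than in untreated DIS3-AID libraries, with a median log2 ratio of 2.48. That was so for 651 of all 718 regions (90.7%), and it rests on treated counts the rule used, so nothing is read from it. The number called was 10 with DESeq2, 12 without untreated control replicate 3, and 14 without either untreated control replicate 2 or untreated DIS3-AID replicate 1.

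The regions with most reads in untreated DIS3-AID cells after antisense.1741 were mixed. Region intergenic.1542, beside SPRY4-AS1 on chromosome 5, had 9, 21 and 22 untreated and 55, 55 and 63 treated reads, and intergenic.2558 had 28, 8 and 11, then 93, 80 and 85. Region intergenic.5042 had 11, 22 and 17, then 44, 39 and 33. By contrast antisense.3697, between LINC01391 and FOXL2NB on chromosome 3, had 20, 19 and 9, then 21, 17 and 21, and intergenic.2446 had 19, 16 and 12, then 13, 27 and 23, with groups that overlap.

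The total RNA tables hold no enhancer RNA rows, but they bear on the regions in another way. Some regions have a row of another kind beside them in the polyA table with nearly the same reads. For 85 of the 718 (11.8%), the counts of a flanking row differed by at most 10% of the region's reads, summed over the 12 polyA libraries, and for 21 they were identical in every library. In 71 the flanking row was an assembled locus, a transcript model with only a number, and in 14 an annotated gene. The same reads may have been counted in both rows, which was not tested by position, and the limit of 10% was set after the data were seen.

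These flanking rows can be read in the total RNA libraries, which the rule did not use. The rows were picked by polyA counts close to those of the regions, so they share the low control and high treated DIS3-AID polyA counts of the choice. The total RNA libraries carry the same group and replicate labels as the polyA ones and are not known to be separate cultures. The values below are therefore a description. Of the 84 tested there, 81 were higher after auxin in DIS3-AID cells and 0 lower (edgeR, adjusted p under 0.05), with a median log2 difference of 3.30, where 21.1% of all features were higher and 13.2% lower. Over the 85, the median level was 0.343 CPM in untreated control, 0.402 in treated control, 0.474 in untreated DIS3-AID and 4.3 in treated DIS3-AID cells. In 81 of the 85 every treated DIS3-AID library lay above all 9 others, but the share over all features was not counted, so nothing is read from it. The 1433 assembled loci as a whole were higher in 1122 (78.3%), with a median of 2.62, and whether they were assembled from these libraries is not given in the sources used here.

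The locus XLOC_003328, whose polyA counts differ from those of intergenic.3242 by 0.23%, stood at 1.08, 1.15 and 1.01 CPM in untreated control total RNA, 1.22, 0.928 and 1.14 in treated control, 1.41, 1.78 and 1.58 in untreated DIS3-AID and 23.9, 24.7 and 24.0 in treated DIS3-AID. Its log2 difference after auxin in DIS3-AID cells was 3.93 ± 0.09 SE (edgeR adjusted p = 8.37e-16). XLOC_008020, within 3.73% of intergenic.592, stood at 1.20, 1.14 and 0.957 CPM in untreated and 21.9, 21.8 and 18.9 CPM in treated DIS3-AID total RNA (log2 4.24 ± 0.10 SE, edgeR adjusted p = 9.57e-16). In polyA RNA intergenic.592 had 0 reads in the untreated and 41, 45 and 43 in the treated DIS3-AID libraries. The 2 values come from different rows and different RNA selections.

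Among the annotated genes, OSTCP1, a transcribed processed pseudogene at chr6:158841117-158857632 (minus strand), had polyA counts within 2.88% of those of intergenic.1896. In total RNA it stood at 1.43, 1.71 and 1.32 CPM in untreated and 19.3, 19.0 and 16.6 CPM in treated DIS3-AID libraries (log2 3.62 ± 0.10 SE, edgeR adjusted p = 5.69e-15). The counts of intergenic.1432 were identical to those of VTRNA1-3, a vault RNA gene at chr5:140726158-140726246 (plus strand) that RNA polymerase III transcribes, and those of antisense.3340 to PRORSD1P, a pseudogene at chr2:55282319-55284522 (plus strand). Neither of these genes is an enhancer RNA by its annotation.

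The 3 flanking rows tested and not called were MTND4P12, beside antisense.1741 (log2 0.04 ± 0.47 SE, edgeR adjusted p = 0.958), ENSG00000275630, beside intergenic.3560 (0.93 ± 0.45 SE, 0.114), and XLOC_013608, beside intergenic.2549 (-0.03 ± 0.17 SE, 0.907). The last stood at 0.977, 0.847 and 0.876 CPM in untreated and 0.801, 1.02 and 0.857 CPM in treated DIS3-AID total RNA, while intergenic.2549 had 7, 1 and 3, then 14, 8 and 8 reads in polyA RNA.

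Over every described region, a flanking row held at least as many reads as the region in all 12 polyA libraries for 405 of 718 (56.4%), and for 440 of the 866 regions with 60 or more control counts (50.8%). Reads shared with a longer neighbour are thus possible for many regions, and were not tested.

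Many of the described regions had a flanking row that was higher after auxin. The rows counted here include the matching flanking rows of the 85 regions above, so part of this repeats that result. Consecutive annotated genes of 1 chromosome followed their start positions in 97% of pairs in the table, so a flanking row is a likely neighbour, though the place of an enhancer RNA row was not checked by position. Of the 655 regions with a flanking row tested in total RNA, 492 (75.1%) had 1 that was higher after auxin in DIS3-AID cells. The share was 59.8% of 789 for regions with 60 or more control counts and 53.4% of 4630 for regions below both limits. Counting annotated genes only, the shares were 56%, 47.6% and 40.5%, and an assembled locus was a flanking row for 41.6%, 26.1% and 18.8%. Assembled loci as a whole were higher in 78.3%, so the sets differ in how often they flank a kind of row that is mostly higher. The differences between these sets were not tested.

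**Figure D5:**
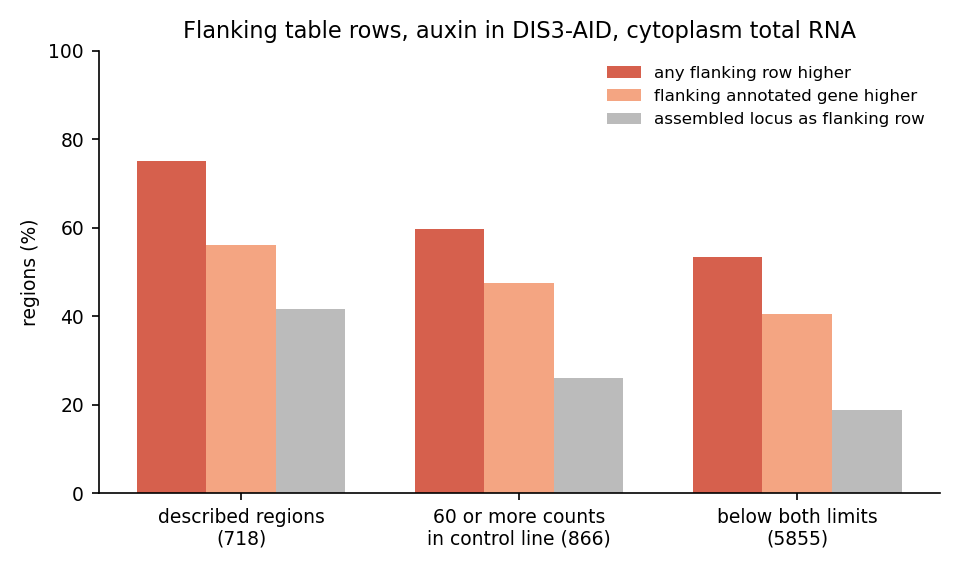
Percent of enhancer RNA regions with any flanking row higher after auxin in DIS3-AID total RNA, with a flanking annotated gene higher, and with an assembled locus as flanking row, in 3 sets of regions. The first 2 bars of a set are shares of its regions with such a row tested, and flanking rows with matching polyA counts are included. All 3 bars are highest in the described regions, at 75.1%, 56% and 41.6%.

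Some of the regions stood beside each other. Of the 718, 140 (19.5%) formed 67 runs of adjacent rows, the longest of 4 regions, and 208 (29%) shared a gap between other rows with at least 1 more. Among the 866 regions with 60 or more control counts the same shares were 9.93% and 15.8%, and the difference was not tested. The fullest gap, between a signal recognition particle RNA copy at chr7:116320751-116321031 (plus strand) and XLOC_012808, held 6: intergenic.5042, intergenic.1998, intergenic.2001, intergenic.2003, intergenic.2005 and antisense.1968, with 116, 34, 31, 157, 100 and 60 treated DIS3-AID reads and 50, 8, 6, 12, 23 and 5 untreated reads. Regions of 1 gap may belong to 1 enhancer or transcript and are not independent.

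The genes of the machinery that removes such RNAs differed by small amounts. Of 45 genes for exosome subunits, exosome adaptors, the cap-binding and Integrator complexes and related factors tested in total RNA, 2 were higher and 5 lower after auxin in DIS3-AID cells (edgeR), where 21.1% of all features were higher and 13.2% lower. The median log2 difference of the list was -0.10, beside -0.051 over all features. EXOSC6, a subunit of the exosome ring, had a level of 70.1 ± 2.64 CPM before and 84.1 ± 3.27 CPM after auxin (SD, n = 3), a rise of 0.26 on the log2 scale (SE 0.05, adjusted p = 0.0003). ZFC3H1, the zinc finger protein of the polyA exosome targeting connection, had 39.4 ± 2.77 and 45.5 ± 0.882 CPM, a rise of 0.21 (SE 0.06, adjusted p = 0.00647). RBM7, the RNA-binding subunit of the nuclear exosome targeting complex, was lower by log2 -0.17 (adjusted p = 0.0286), as were EXOSC1 (-0.18), TENT4B (-0.17), SRRT (-0.14) and INTS3 (-0.17). Scaled by library size alone, 3 genes were higher and 0 lower, and with min.count 5 in the low-count filter 2 were higher and 0 lower.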

How the data were processed

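Cytoplasmic RNA of HCT116 cells was sequenced as polyA RNA (12 libraries) and total RNA (12 libraries); chromatin libraries of the series were not used. The deposited values are raw read counts per feature. STAR 2.7.3a, Cufflinks 2.2.1 and featureCounts 2.0.0 on hg38 are named in the submitters' processing notes, with settings not given in the sources used here, and per the labels both kits were stranded. Enhancer RNA rows occur in the polyA tables only. Gene names and positions came from GENCODE 29.

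After TMM scaling, features that passed filterByExpr at a min.count of 10 (563 of the 718 regions) were fitted over all 16651 polyA or 23027 total RNA features with robust quasi-likelihood F tests in edgeR 4.0.16 (R 4.3.3, limma 3.58.1), 1 mean per group, Benjamini-Hochberg adjustment and a threshold of 0.05. DESeq2 1.42.0 was the other tool. Scripts were tested on simulated data. The regions, gene lists and tests were chosen with earlier results of these data known. Named regions were the 8 with most treated DIS3-AID reads, the 8 with the largest and 6 with the lowest treated over untreated ratio, the 6 with most untreated DIS3-AID reads, the 4 with the smallest p for auxin in control cells, and 3 on each side of each limit; regions named for a matching flanking row or a shared gap were chosen after their values were seen.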

Additional observations from a re-analysis of the deposited data

Results flagged for a closer look

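The auxin responses of the DIS3-AID and control lines differed, by edgeR's test of the difference itself, in 130 of the 563 regions tested. The rule used the treated DIS3-AID counts, so these values describe the choice as well as the cells. The named regions that passed this test of the difference between the lines are given by its log2 value. It was 3.81 for intergenic.3058, 3.99 for intergenic.3146, 6.46 for antisense.1892, 4.25 for intergenic.2882, 4.67 for intergenic.503, 4.04 for intergenic.3318, 5.06 for intergenic.367 and 5.68 for intergenic.3242, the 8 regions with most reads. For intergenic.592, intergenic.3184 and antisense.1080 it was 8.89, 7.71 and 7.13. The first 2 of these had no read in untreated DIS3-AID libraries and antisense.1080 had 1, so their values depend on the prior count of the fit. For intergenic.1542, intergenic.2558 and intergenic.3758 it was 1.88, 2.45 and 5.49. In antisense.1892 and intergenic.3758 the treated control libraries were lower than the untreated ones, at 0, 2 and 2 against 8, 10 and 7 reads and at 0, 1 and 0 against 4, 6 and 3, which enters the difference.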

How the results depend on the processing

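The 718 regions became 296 when 60 treated DIS3-AID reads were required. The median log2 ratio of treated over untreated DIS3-AID was 2.31 with 5 reads added, and 2.66 to 2.72 with 1 replicate number left out. The 22 regions called in the untreated clone became 10 with DESeq2 and 5 when only those groups were fitted, where 43 regions were tested. They became 12 to 18 with 1 library left out: 14 without untreated control replicate 2, 12 without its replicate 3 and 14 without untreated DIS3-AID replicate 1. Auxin in control cells gave 0 calls under every alternative run, though only 21 regions were tested when just its groups were fitted. Auxin in DIS3-AID cells gave 466 to 546 calls and its difference from control cells 89 to 122 with 1 library left out. The 7 decay genes called became 3 by library sizes alone, 3 with no filter, 2 with min.count 5, 2 with only the compared groups, and 2 to 8 with 1 library left out. The cause of these changes was not tested. Replicate numbers did not pair the libraries (correlations of same-numbered deviations from -0.0414 to 0.094 in polyA RNA). With the replicate number as a block, calls were 0, 22, 471 and 126 in the 4 polyA comparisons and 13 among the decay genes. No direction reversed. A typical region had 9 reads over the untreated DIS3-AID libraries, and what difference this depth could show in these regions was not tested.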
